A study of Mus musculus with 5 samples.

Results

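A total of 550 Runx3-bound regions of activated mouse CD8+ T cells (CD8-TC) lay in promoter flanks and shared no base with a region carrying the histone mark H3K4me1. They were taken from the 9135 regions of the Runx3 list by position alone. A region belonged to the group if its centre was 1 kb to under 5 kb from the nearest transcription start site (TSS) of the GENCODE vM1 annotation on mouse assembly mm9, and if it shared 0 bp with each of the 18992 H3K4me1 regions. The 550 unmarked flanking regions made up 6.02% of all Runx3-bound regions and 34.8% of the 1579 regions at this distance from a TSS. The other 1029 regions at this distance touched an H3K4me1 region and are called marked flanking regions.

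Runx3 is a transcription factor of the RUNX family, which binds a short DNA motif and acts with partner factors such as ETS proteins. In CD8-TC it silences Cd4 and promotes cytotoxic genes. Monomethylation of histone H3 at lysine 4 is typical of enhancers and of the shoulders of active promoters, while the nucleosomes next to an active TSS carry mainly the trimethylated form.

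The cells were splenic CD8-TC of wild-type ICR mice, isolated by positive selection on anti-CD8 beads. They were stimulated through the T cell receptor (TCR) for 2 days on plates coated with anti-CD3e with soluble anti-CD28. They were then kept for 4 further days in 100 u/ml of recombinant human IL-2. Chromatin of these cells was sheared to about 300 bp. It was precipitated with a polyclonal anti-Runx3 antibody made in the laboratory (2 libraries) or with non-immune serum (NIS, 2 libraries). An anti-H3K4me1 antibody gave the remaining library (1 in the labels). All 5 libraries came from cells with the same treatment, so the lists hold no second condition. Peaks were called on joined reads, and the lists give positions only. Nothing below therefore has a replicate error. Intervals are 95% Wilson intervals for counting error, and p-values describe the called regions, which are not replicates of the cells. The list matched the labelled cell type at its defining loci: Cd8a had 1 Runx3-bound and 2 H3K4me1 regions within 5 kb of the gene, Cd8b1 had 2 and 4, Cd3d had 2 and 3, and Ncr1 of natural killer cells had 0 and 0. Cd3e had 5 H3K4me1 regions and 0 Runx3-bound regions.

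The sequences of 10 members show what was found at the region centres. Each is the central 200 bp of the region on the plus strand of mm9, 5′ to 3′, and capitals mark the RUNX motif, that is TGTGGT or TGTGGC or TGCGGT or TGCGGC on either strand. A motif on the minus strand is printed as its reverse complement, so the first of these reads ACCACA there. The form TGTGGT is called the main form below, and the form TGCGGT is called the CpG form. TGCGGC holds a CpG as well, but the name is used for TGCGGT alone. The first pair shows the commonest case, a single RUNX motif, here of the main form. The first is chr10:60763929-60764128, in an intron of Prf1, which encodes the pore-forming protein perforin, and the second is chr4:129248875-129249074, in an intron of Lck, the kinase that starts TCR signalling.
Prf1: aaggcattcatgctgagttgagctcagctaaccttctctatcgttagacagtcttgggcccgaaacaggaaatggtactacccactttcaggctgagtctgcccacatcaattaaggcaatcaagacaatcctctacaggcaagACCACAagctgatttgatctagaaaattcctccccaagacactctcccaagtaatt
Lck: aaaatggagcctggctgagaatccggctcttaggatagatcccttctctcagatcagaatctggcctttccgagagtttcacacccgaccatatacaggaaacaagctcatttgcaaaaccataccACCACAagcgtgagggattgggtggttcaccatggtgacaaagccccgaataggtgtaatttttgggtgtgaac

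The next pair shows RUNX motifs close together. The window chr5:114282632-114282831 lies in intergenic sequence upstream of Selplg, which encodes the selectin ligand PSGL-1. The window chr6:122754574-122754773 lies in intergenic sequence upstream of Slc2a3, a glucose transporter gene.
Selplg: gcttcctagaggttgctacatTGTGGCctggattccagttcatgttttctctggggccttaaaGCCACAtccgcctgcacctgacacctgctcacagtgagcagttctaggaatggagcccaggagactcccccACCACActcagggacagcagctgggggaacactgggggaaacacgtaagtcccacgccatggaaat
Slc2a3: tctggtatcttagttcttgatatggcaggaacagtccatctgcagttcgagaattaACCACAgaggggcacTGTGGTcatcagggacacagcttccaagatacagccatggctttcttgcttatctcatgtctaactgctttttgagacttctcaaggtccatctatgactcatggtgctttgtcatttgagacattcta

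The following 3 windows carry the other forms of the motif. The window chr10:20878699-20878898 in an intron of Myb, a transcription factor gene of blood progenitors and activated lymphocytes, holds TGTGGC. The window chr6:127105115-127105314, in an annotated intron upstream of the nearest TSS of the cyclin D2 gene Ccnd2, holds the CpG form. The window chr2:56968898-56969097, in an annotated intron upstream of the nearest TSS of the TCR-induced nuclear receptor gene Nr4a2, holds TGCGGC at 2 places.
Myb: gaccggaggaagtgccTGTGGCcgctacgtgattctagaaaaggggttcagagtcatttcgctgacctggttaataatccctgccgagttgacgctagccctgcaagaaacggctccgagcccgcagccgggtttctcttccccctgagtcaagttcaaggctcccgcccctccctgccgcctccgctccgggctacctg
Ccnd2: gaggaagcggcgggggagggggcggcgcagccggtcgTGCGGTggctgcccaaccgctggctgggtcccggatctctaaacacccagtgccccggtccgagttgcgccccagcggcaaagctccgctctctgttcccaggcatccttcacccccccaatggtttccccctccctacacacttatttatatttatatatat
Nr4a2: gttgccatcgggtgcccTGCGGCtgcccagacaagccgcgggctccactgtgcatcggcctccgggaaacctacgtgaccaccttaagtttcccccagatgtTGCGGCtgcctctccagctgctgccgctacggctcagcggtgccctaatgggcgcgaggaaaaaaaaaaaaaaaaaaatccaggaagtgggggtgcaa

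The last 3 windows show the extremes. The window chr17:35337452-35337651 in an intron of the cytokine gene Tnf had 0 RUNX motifs, and so did the whole 436 bp of that region. The window chr6:29276927-29277126, upstream of the processed transcript Gm17172, had the most of all members, and chr17:25453584-25453783, upstream of the serine protease gene Prss29, held the motif in an unbroken tandem repeat.
Tnf: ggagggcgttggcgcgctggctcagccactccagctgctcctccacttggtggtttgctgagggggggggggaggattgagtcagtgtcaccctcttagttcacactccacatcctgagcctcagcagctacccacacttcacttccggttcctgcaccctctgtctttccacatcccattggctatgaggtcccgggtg
Gm17172: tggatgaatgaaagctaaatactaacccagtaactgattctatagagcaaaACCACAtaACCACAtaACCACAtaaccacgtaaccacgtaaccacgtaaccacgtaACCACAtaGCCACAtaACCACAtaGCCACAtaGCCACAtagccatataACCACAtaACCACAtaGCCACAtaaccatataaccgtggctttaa
Prss29: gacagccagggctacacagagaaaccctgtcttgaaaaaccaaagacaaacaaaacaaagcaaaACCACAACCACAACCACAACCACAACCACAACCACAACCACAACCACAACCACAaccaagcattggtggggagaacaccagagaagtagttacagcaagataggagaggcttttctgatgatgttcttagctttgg

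The members were spread along the whole flank but were densest next to the TSS. On the upstream side, 94 members had their centre 1 to 2 kb away, 61 at 2 to 3 kb, 45 at 3 to 4 kb and 48 at 4 to 5 kb. On the downstream side the numbers were 140, 73, 47 and 42. The nearest downstream kilobase was thus the commonest position, with 25.5% of the members against 12.6% of the marked flanking regions, as seen in the plot of positions. The median distance to the TSS was 2266 bp for members and 2755 bp for marked flanking regions. The marked flanking regions were spread more evenly, with 177, 130, 110 and 102 upstream and 130, 136, 125 and 119 downstream.

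**Figure D1:**
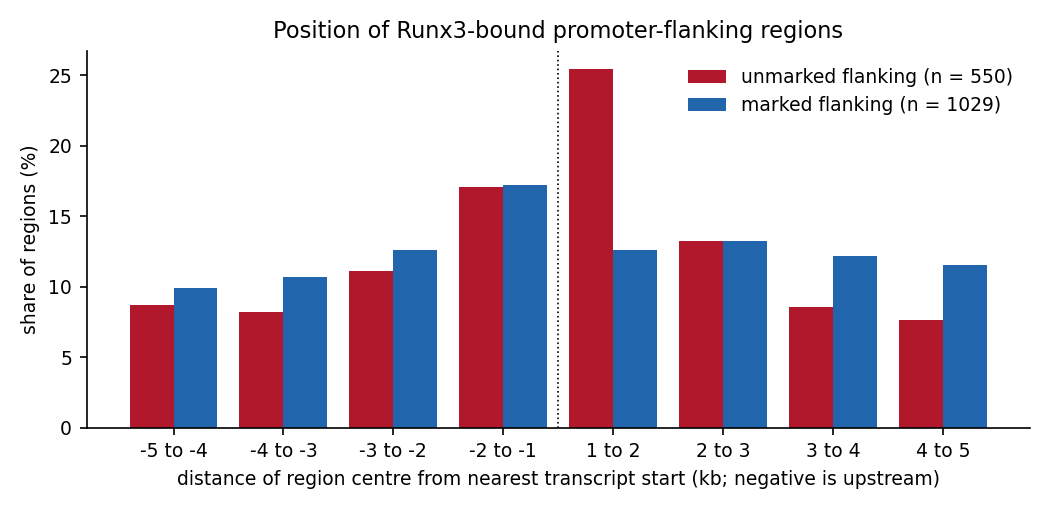
Share of the 550 unmarked and 1029 marked flanking Runx3-bound regions (vertical axis, percent of each class) by the distance of the region centre from the nearest TSS (horizontal axis, kb, 1-kb bins, negative upstream). The bar for unmarked regions 1 to 2 kb downstream reaches 25.5%, and the marked regions stay between 9.91% and 17.2% in each bin.

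The unmarked share of all flanking regions was lower farther along the flank. Of the 298 regions 1 to 1.5 kb from a TSS, 43.6% (38.1 to 49.3%) were unmarked, and of the 156 regions at 4 to 4.5 kb, 23.1% (17.2 to 30.3%). In the last 0.5 kb it was 34.8% (27.8 to 42.6%) of 155 regions, which overlapped the intervals of its neighbours. Over all Runx3-bound regions at any distance, 42.7% were unmarked. The rule set the limits of distance and overlap, so these shares are a description.

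Most members were inside genes. The centre was in an intron for 318 members (57.8%), between genes for 191 (34.7%), in a coding exon for 20 (3.64%), in an untranslated region for 11 (2.00%) and in an exon of a noncoding transcript for 10 (1.82%). Of the marked flanking regions, 642 (62.4%) were in an intron, 327 (31.8%) between genes and 16 (1.55%) in a coding exon. The nearest TSS belonged to a protein-coding gene for 448 members (81.5%) and 827 marked flanking regions (80.4%), a difference of 1.09 percentage points (-3.08 to 5.035; Fisher's exact test, adjusted p = 0.731). Among the rest, the nearest TSS was that of a processed transcript for 27 members, a pseudogene for 22, a small nuclear RNA for 12, a lincRNA for 11 and a microRNA for 10. Members downstream of the TSS numbered 302 (54.9%) against 510 marked regions (49.6%), and this difference of 5.35 points (0.173 to 10.5) did not pass Fisher's exact test after adjustment (adjusted p = 0.0895). It passed the exact test with TSSs of protein-coding genes alone (9.58 points, adjusted p = 0.00216) and in 2 other settings given in the closing section.

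Members stood next to CpG-rich TSSs more often than marked flanking regions did. A TSS was called CpG-rich when the 1 kb around it had a GC content over 55% and an observed-to-expected CpG ratio over 0.6, the pattern of a CpG island promoter, which is common at broadly expressed and developmental genes. Over all Runx3-bound regions, 37.1% had such a nearest TSS. It was 203 members (36.9%, 33.0 to 41.0%) and 263 marked flanking regions (25.6%, 23.0 to 28.3%), a difference of 11.4 points (6.55 to 16.2; Fisher's exact test, adjusted p = 2.1e-05). The members were thus close to the share over all regions and the marked flanking regions below it. The call was kept in each of the 9 alternatives run for it, with differences from 8.89 to 13.3 points.

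The CpG-rich TSSs were concentrated at the near end of the flank in the members but not in the marked regions. At 1 to 2 kb, 43.2% (37.0 to 49.6%) of 234 members had a CpG-rich nearest TSS, against 23.1% (18.8 to 28.2%) of 307 marked regions. At 4 to 5 kb the shares were 27.8% (19.6 to 37.8%) of 90 members and 25.3% (20.1 to 31.5%) of 221 marked regions, whose intervals overlapped. The change of the difference with distance was not tested. The nearest TSS itself lay under an H3K4me1 region for 27 members (4.91%, 3.395 to 7.05%) and for 208 marked flanking regions (20.2%, 17.9 to 22.8%), which the rule partly sets, since wide H3K4me1 regions reach both places.

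A Runx3-bound region within 1 kb of a TSS of the same gene was found for 116 members (21.1%) and 221 marked regions (21.5%), a difference of -0.386 points (-4.52 to 3.94; Fisher's exact test, adjusted p = 0.937). Another Runx3-bound centre within 10 kb, by contrast, was seen for 192 members (34.9%, 31.0 to 39.0%) and for 453 marked flanking regions (44.0%, 41.0 to 47.1%), where the share over all Runx3-bound regions was 33.5%. The difference of -9.11 points (-14.0 to -4.05) passed Fisher's exact test (adjusted p = 0.00190). It no longer did with a limit of 5 kb, with regions of like width, or when regions counted as marked only at 50% cover, and it was -13.9 points with a limit of 20 kb and -14.6 points without the members within 1 kb of H3K4me1. The other unmarked classes had neighbours farther off than the members, with no test. The lower quartile of the distance to the nearest other centre was 4584 bp in members and 3712 bp in marked flanking regions. In unmarked regions under 1 kb, 5 to 50 kb and 50 kb or more from a TSS it was 10512, 12112 and 17918 bp.

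The kind of neighbour differed as well, as a description of these lists. Of the 192 members with a neighbour, the nearest one was an unmarked region under 1 kb from a TSS for 75 (39.1%), another member for 40 (20.8%), a marked flanking region for 28 (14.6%), a marked region at a TSS for 25 (13.0%), a marked region 5 to 50 kb away for 16 (8.33%) and an unmarked one at that distance for 8 (4.17%). Of the 453 marked flanking regions with a neighbour, the nearest was another marked flanking region for 140 (30.9%) and an unmarked region at a TSS for 89 (19.6%). Neighbours lie in the same stretch of chromatin, so their overlap with the mark is not independent.

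The 550 members belonged to 528 genes, and 22 genes had 2 members each. The pairs were protein-coding genes, among them Lck, Socs1, Pik3ip1, which encodes an inhibitor of phosphoinositide 3-kinase (PI3K), Cd53, a tetraspanin of leukocytes, Wipf1, which encodes a partner of the Wiskott-Aldrich syndrome protein, and Tagap, an activation gene of T cells. Except for Lck and Socs1, these names were chosen after their values were seen. The marked flanking regions belonged to 932 genes, and 44 genes had regions of both kinds, which is 8.33% of the member genes and 4.72% of the genes with marked regions. For 158 members (28.7%), the same gene was also nearest to a marked Runx3-bound region at any distance.

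Although no member touched an H3K4me1 region, many had one close by. The distance from the member's end to the nearest H3K4me1 region ranged from 8 bp to 4.64 Mb with a median of 9.33 kb. It was within 500 bp for 81 members (14.7%), within 1 kb for 122 (22.2%), within 5 kb for 232 (42.2%), within 10 kb for 281 (51.1%) and within 50 kb for 408 (74.2%). Of all members, 70 (12.7%) had an H3K4me1 region within 5 kb on both sides and so sat in a gap between marked regions. The unmarked regions under 1 kb from a TSS had a median of 14.2 kb, with 44.7% within 10 kb, and those 5 to 50 kb from a TSS a median of 22.2 kb, with 36.9% within 10 kb. In the plot of these distances the curve of the members ran above both others between about 1 and 10 kb.

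**Figure D2:**
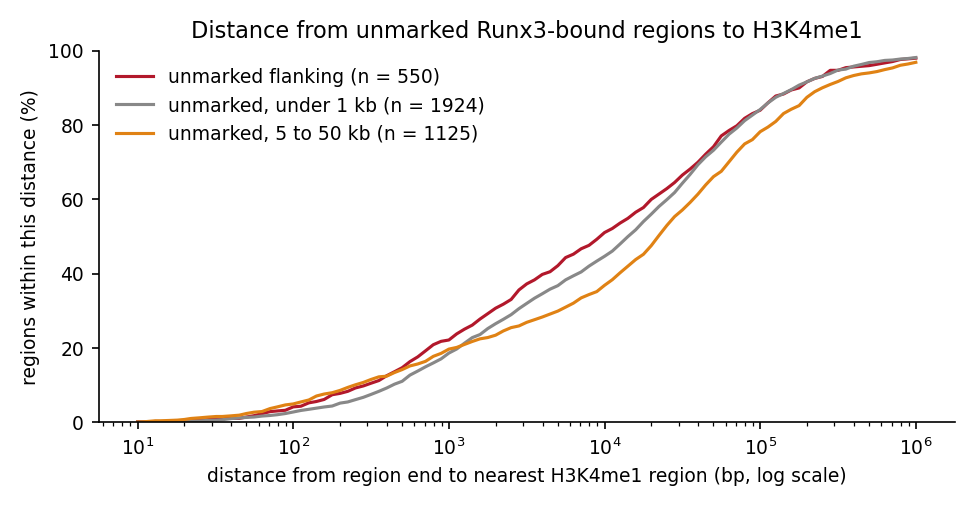
Cumulative share of unmarked Runx3-bound regions (vertical axis, percent) with an H3K4me1 region within the distance on the horizontal axis (bp, log scale), for the 550 flanking members, the 1924 regions under 1 kb and the 1125 regions 5 to 50 kb from a TSS. At 10 kb the curves stand at 51.1%, 44.7% and 36.9%.

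The mark lay more often on the side away from the TSS. At 1 kb from the member's centre, 14.4% of positions away from the TSS were inside an H3K4me1 region, against 7.45% of positions towards it. At 2 kb the shares were 16% and 10.2%, and at 10 kb they were 10% and 7.45%. The marked flanking regions, where 82.1% of the centre positions were inside an H3K4me1 region, gave 63.9% and 59.2% at 1 kb. The unmarked regions 5 to 50 kb from a TSS had 9.24% and 10.3%, and so no such lean. Those under 1 kb from a TSS leaned the same way by less at 1 kb (8.68% and 6.76%), and had 10.45% and 10.5% at 2 kb. These shares describe the list, with no test.

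**Figure D3:**
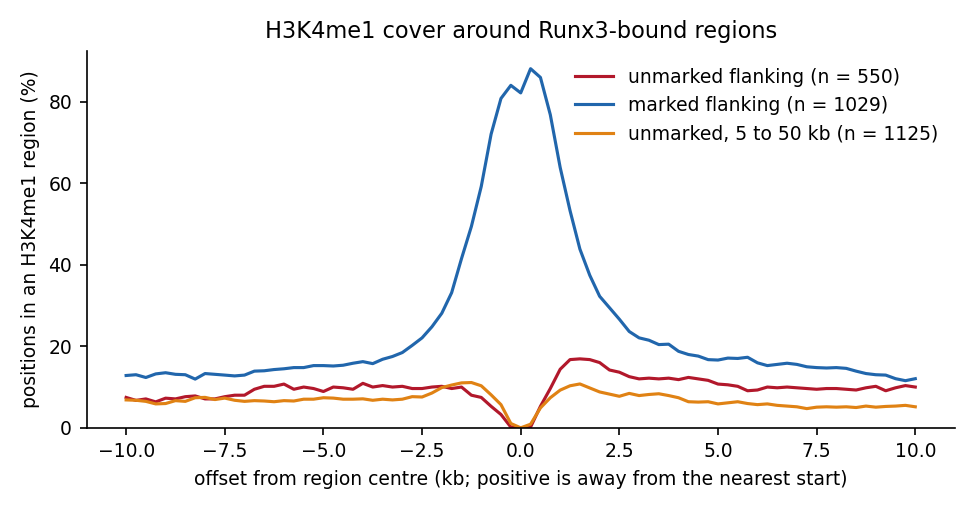
Share of positions inside an H3K4me1 region (vertical axis, percent) by offset from the region centre (horizontal axis, kb, positive away from the nearest TSS) in 3 classes of Runx3-bound regions. The line of the unmarked flanking regions is 0 at the centre by the rule, and it is higher at 1 kb away from the TSS (14.4%) than at 1 kb towards it (7.45%).

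The limits of the rule passed between regions of close values. The member closest to H3K4me1 was in an intron of Rab8b, a gene of vesicle transport, at 8 bp, followed by one in an intron of the cannabinoid receptor gene Cnr2 at 19 bp. The marked regions with the smallest overlap were 1 near the DNA methyltransferase gene Dnmt3a and 1 near Gm5292, with 8 bp each. At the near limit, the members with the smallest distance were at Gm16734 (1.000 kb) and 1700012B15Rik (1.001 kb), and unmarked regions at Tcf3 (0.999 kb), a gene of lymphocyte development, and Polr3e (0.998 kb) fell just outside. At the far limit, Gm6116 (4.99 kb) and Znrf4 (4.98 kb) were inside, and B230217O12Rik and Rspry1 fell outside at 5.001 and 5.011 kb.

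A RUNX motif was found at the centre of most members. A motif of any form was present in the central 200 bp of 428 members (77.8%, 74.2 to 81.1%), where the share over all Runx3-bound regions was 78.8%. Among the members, 225 had 1 motif, 139 had 2, 42 had 3, 22 had 4 or more and 122 had 0. Over the whole region, 499 members (90.7%) had at least 1 motif, against 94.7% of the marked flanking regions, which were wider. The same 200-bp window placed 1000 bp further from the TSS held a motif for 172 of the 550 members (31.3%, 27.5 to 35.3%). In 294 members only the centre had the motif and in 38 only the flank did (McNemar's exact binomial test, p = 3.5e-50). The sequence in 1524905 windows of 200 bp tiled over all promoter flanks outside both lists, weighted to the GC content of the members, gave 31.1%, so that the members' share was 2.50 times as high.

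Motifs peaked at the very centre. The density was 8.69 motifs per kb in the 50 bp before the centre and 7.78 in the 50 bp after it, and it fell to 2.04 at 225 bp on each side and to 1.67 and 1.75 at 975 bp. The prominent central peak in the plot of motif density was of nearly equal height in both classes of flanking regions. A region centre is the midpoint of the called peak, so this profile did not use the sequence.

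**Figure D4:**
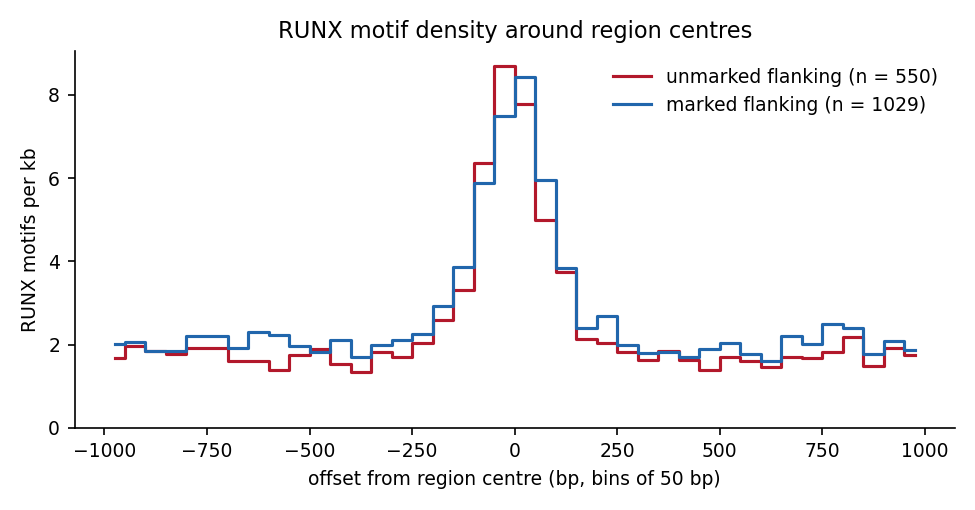
RUNX motifs of any form per kb (vertical axis) by offset from the region centre (horizontal axis, bp, 50-bp bins) in the 550 unmarked and the 1029 marked flanking regions. Members reach 8.69 motifs per kb just before the centre and stay near 1.7 beyond 500 bp.

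Among the forms of the motif, the main form was the commonest in the members and the CpG form the most enriched. The main form was in 315 members (57.3%), where 15.0% of tiled windows at the members' GC content had it, a ratio of 3.82. TGTGGC was in 147 members (26.7%) with a ratio of 1.83. TGCGGC, which also holds a CpG, was in 27 (4.91%) with the lowest ratio, 1.59. The CpG form was in 80 members (14.55%, 11.8 to 17.7%), where only 2.19% of tiled windows had it, a ratio of 6.65. In the marked flanking regions the CpG form also had the highest ratio (4.91, against 3.98 for the main form). Over all Runx3-bound regions 13.7% had the CpG form.

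Compared with the marked flanking regions, the CpG form was more frequent in the members. Its share was 14.55% against 9.43% (97 of 1029), a difference of 5.12 points (1.79 to 8.71; Fisher's exact test, adjusted p = 0.00556). The difference did not pass the exact test in the central 100 bp (2.41 points, adjusted p = 0.140), in regions of like width or where the nearest region end set the distance. In the central 400 bp it was 8.08 points (exact test, adjusted p = 0.000207). The RUNX motif of any form differed by -3.72 points (-8.01 to 0.393, adjusted p = 0.126), the main form by -4.73 points (-9.82 to 0.330, adjusted p = 0.120) and pairs of RUNX motifs by -4.04 points (-8.49 to 0.591, adjusted p = 0.129), none of which passed the exact test. The main form did pass, lower in the members, in the central 400 bp (-8.41 points), over the whole region (-8.34), at 50% cover (-8.05) and among regions of like width (-9.95). The motif of any form passed over the whole region (-3.93) and at 50% cover (-5.94), and pairs passed in the central 400 bp (-5.88), over the whole region (-7.17) and at 50% cover (-5.73).

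ETS motifs were less frequent in the members than in marked flanking regions. The motif searched was AGGAAA or AGGAAG or CGGAAA or CGGAAG on either strand, the core bound by factors such as Ets1, Fli1 and PU.1. It was in 339 members (61.6%, 57.5 to 65.6%) and 713 marked regions (69.3%, 66.4 to 72.0%), where 66.1% of all Runx3-bound regions had it. The difference of -7.65 points (-12.6 to -2.75) passed Fisher's exact test (adjusted p = 0.00556). ETS motifs within 50 bp of a RUNX motif were in 189 members (34.4%) and 440 marked regions (42.8%), a difference of -8.40 points (-13.3 to -3.35; exact test, adjusted p = 0.00362). At the members' GC content 42.9% of tiled windows had an ETS motif, so the members were 1.44 times as high and the marked regions 1.60 times as high as windows of their own GC content. Both ETS differences fell short of the threshold among regions of like width (-5.79 and -6.60 points), and that of the ETS motif also did when regions counted as marked only at 50% cover (-4.48 points). AP-1 motifs, TGACTCA or TGAGTCA, bound by Jun and Batf dimers, were in 38 members (6.91%) and 7.97% of the marked regions (-1.06 points, -3.64 to 1.80, adjusted p = 0.584 by the exact test).

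**Figure D5:**
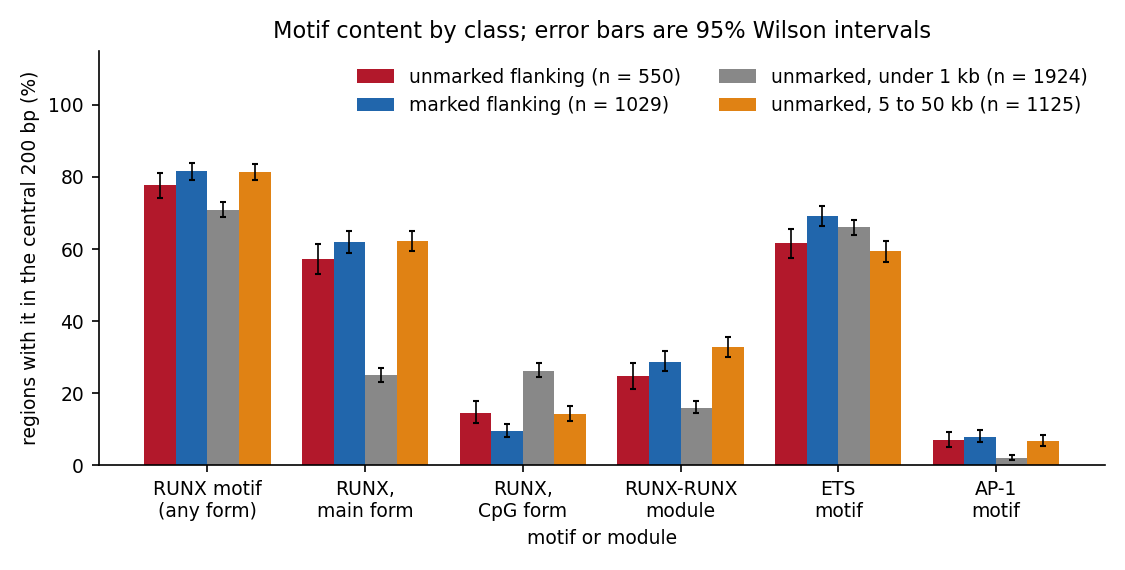
Share of regions with a motif or module in the central 200 bp (vertical axis, percent; error bars are 95% Wilson intervals for counting error) in 4 classes of Runx3-bound regions. The members differ past the test's threshold from the unmarked regions 5 to 50 kb away in pairs of RUNX motifs alone, and from the unmarked regions under 1 kb in the main form (57.3% against 25.05%) and the CpG form (14.55% against 26.3%) among others.

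In motif content the members differed from the unmarked regions at the TSS itself. The main form was in 57.3% of members and 25.05% of the 1924 unmarked regions under 1 kb, a difference of 32.2 points (27.6 to 36.7; Fisher's exact test, adjusted p = 2.1e-42). The CpG form was lower in the members by 11.8 points (-15.1 to -8.03, adjusted p = 4.7e-08 by the exact test), since 26.3% of the proximal regions had it. Within quintiles of GC content the main-form difference was 15.6 points and passed a Mantel-Haenszel test. The CpG-form difference was then -3.92 points and did not pass. Without CpG-rich centres in either class they were 17.4 points (exact test, adjusted p = 7e-08) and -6.92 points (adjusted p = 0.00528). The RUNX motif of any form was 6.87 points more frequent in the members (adjusted p = 0.00371), pairs of RUNX motifs 8.72 points (adjusted p = 2.5e-05) and AP-1 motifs 4.88 points (6.91% against 2.03%, adjusted p = 1.3e-06), each by the exact test. The difference in the RUNX motif of any form did not pass over the whole region (0.499 points; exact test, adjusted p = 0.921), in the central 400 bp (2.35 points), within GC quintiles (5.72 points) or among regions of like width (7.36 points). The ETS motif was in 66.1% of the proximal regions, a difference of -4.48 points (-9.10 to 0.0365, adjusted p = 0.0948 by the exact test).

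Against the unmarked regions 5 to 50 kb from a TSS, 1 of 6 comparisons of motif content passed the test. They had the CpG form in 14.3%, 0.234 points from the members (-3.23 to 3.96, adjusted p = 0.941), the ETS motif in 59.4% (2.26 points, -2.75 to 7.17, adjusted p = 0.499) and the AP-1 motif in 6.67% (0.242 points, -2.20 to 3.01, adjusted p = 0.912), by the exact test. The main form was in 62.2% of them (-4.95 points, -9.97 to 0.0305, adjusted p = 0.0948 by the exact test). Pairs of RUNX motifs within 50 bp were in 24.7% of members and 32.7% of these distal regions, and this difference of -7.98 points (-12.4 to -3.36) passed Fisher's exact test (adjusted p = 0.00279). It fell short in the central 100 bp, over the whole region and among regions of like width.

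A search over all words of 6 bases, added after the data were seen, gave the RUNX motif first. Among 2080 words, each joined with its reverse complement, TGTGGT led over the tiled windows, followed by GTGGTT (44.0% against 10.8%), which is the main form read on into the next base. The first word outside the RUNX motif and its flanks was GGAAGT (27.3% against 12.0%), an ETS core. Against the marked flanking regions, 52 words (2.50% of those tested) passed Fisher's exact test after adjustment, and 262 did so at an unadjusted p under 0.05. Of the 52, 46 held a CG and were higher in the members, out of 604 words with a CG. GCGGCG was in 30 members and 8 marked regions, 5.455% and 0.778% (adjusted p = 4.7e-05), and GCGGTG in 10.4% and 4.18% (adjusted p = 0.00126), both by the exact test. Of the 6 without a CG, 4 were lower in the members, among them the ETS word AGGAAG (37.3% against 46.9%, adjusted p = 0.0158 by the exact test).

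A small set of members had a CpG-rich centre of their own, and its part in the CG words was not tested. A central window over 55% GC with an observed-to-expected CpG ratio over 0.6 was found in 48 members (8.73%), 6 marked flanking regions (0.583%) and 64.1% of the unmarked regions under 1 kb from a TSS. At 5 to 50 kb from a TSS, 57 unmarked regions (5.07%) and 20 marked regions (0.661%) had such a centre. The 48 had a median distance of 1.76 kb from the annotated TSS and of 16.6 kb from H3K4me1, and 26 of them (54.2%) were next to a CpG-rich TSS. The CpG form was in 18 of them (37.5%, 25.2 to 51.6%) and the main form in 10 (20.8%, 11.7 to 34.3%), with an ETS motif in 36 (75%, 61.2 to 85.1%). In the other 502 members the CpG form was in 62 (12.4%, 9.76 to 15.5%) and the main form in 305 (60.8%, 56.4 to 64.9%). Without CpG-rich centres in either class, the CpG form differed from the marked flanking regions by 3.06 points (adjusted p = 0.134 by Fisher's exact test), and the ETS motif by -9.14 points (adjusted p = 0.00342). Whether these 48 centres lie at a TSS that the annotation lacks was not tested.

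Members varied with their distance to H3K4me1. Of the 122 members within 1 kb of the mark, 72.1% (63.6 to 79.3%) had a RUNX motif in the centre and 17.2% (11.5 to 24.9%) a pair of motifs. Of the 142 members more than 50 kb from the mark, the shares were 85.2% (78.45 to 90.1%) and 31.7% (24.6 to 39.7%). The ETS motif went the other way, from 66.4% (57.6 to 74.2%) to 54.2% (46.0 to 62.2%). Members near the mark were also wider, with a median of 539 bp within 1 kb and 544 bp at 1 to 5 kb, against 440.5 bp at 5 to 50 kb and 456.5 bp beyond. Another Runx3-bound region within 10 kb was seen for 54.1%, 59.1%, 26.7% and 9.86% of the members in these 4 classes. A CpG-rich nearest TSS was seen for 39.3%, 50.9%, 34.7% and 26.8%. The intervals of the nearest and the farthest class were apart for the neighbour (45.3 to 62.7% against 5.96 to 15.9%). They were also apart for a position downstream of the TSS (66.4%, 57.6 to 74.2%, against 43.7%, 35.8 to 51.9%) and for a Runx3-bound TSS of the same gene (27.9%, 20.7 to 36.4%, against 9.86%, 5.96 to 15.9%). For the RUNX motif, pairs of motifs, the ETS motif and a CpG-rich nearest TSS, the intervals of the nearest and the farthest class overlapped. The marked flanking regions, which touch the mark, had a RUNX motif in 81.5%, a pair in 28.8% and an ETS motif in 69.3%. None of these trends was tested.

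The isolated members included the regions with most motifs. Of the 22 members with 4 or more RUNX motifs in the centre, 19 lay over 5 kb from H3K4me1, with a median of 50.8 kb. The region upstream of Gm17172 (chr6:29276717-29277337, 621 bp) had 11 motifs and was 55.2 kb from H3K4me1. A region at Adamtsl5 had 10 and was 62.5 kb from the mark, and one downstream of the TSS of mmu-mir-1194 had 10 and was 109 kb away. The region upstream of Prss29 had 9 in tandem and was 41.4 kb away, and those at Baiap2l2 and Gm16322 had 6 each. The motifs at Gm17172, Prss29 and Gm16322 recurred in steps of 8, 6 and 5 bp, and 77.8% of the 32-base words of the Prss29 region occurred once in the genome, against 100% for Gm17172. Among the 1029 marked flanking regions, 21 (2.04%) had 4 or more motifs, against 4.00% of the members. Such regions were not particular to the members. They numbered 45 of the 1125 unmarked regions 5 to 50 kb from a TSS, where the most was 13 motifs. There were 15 among the 302 unmarked regions 50 kb or more away, and 20 among the 1924 under 1 kb.

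The members were 218 to 1268 bp wide with a median of 478 bp, and the marked flanking regions had a median of 531 bp. Unmarked regions under 1 kb, 5 to 50 kb and 50 kb or more from a TSS had medians of 534.5, 458 and 452 bp. The widest member, 1268 bp, was at Gm11932, next to the region of Bach2, with 5 motifs over its length and 1 in the centre, and its centre was 1367 bp from that of the Bach2 region. The next widest were at the ankyrin repeat gene Ankrd44 (1203 bp), the proton-sensing receptor gene Gpr65 (1200 bp), Crhbp (1128 bp), Rhof (1121 bp) and 9330160F10Rik (1107 bp). Fewer than 90% of the 32-base words were unique in 47 members (8.55%) and 60 marked flanking regions (5.83%). Fewer than 50% were unique in 8 members, at Mbnl1, Gbp8, Klra9, Ddx6, Gm2382, Trav11d, Dynlt1b and Rpl37-ps1, and in 2 marked regions. At Trav11d, in the T cell receptor alpha locus, no 32-base word was unique. The reads had 40 to 42 bases, so these words are somewhat shorter than a read.

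On chromosome X, 15 of 18 flanking regions were unmarked (83.3%, 60.8 to 94.2%). On the autosomes the share ran from 18.5% on chromosome 18 (5 of 27, 8.18 to 36.7%) to 46.3% on chromosome 13 (25 of 54, 33.7 to 59.4%). The 15 members on chromosome X each had a RUNX motif in the centre. Those with most motifs were at Tmsb4x, which encodes the actin-binding thymosin beta 4 (2 motifs, 9.09 kb from H3K4me1), Gm14718 (2 motifs) and 2010204K13Rik (2 motifs). Chromosome X held 2.73% of the members, 0.292% of the marked flanking regions, 1.09% of the unmarked regions under 1 kb and 3.56% of those 5 to 50 kb from a TSS.

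The members lay at a number of genes with known roles in T cells. Of 262 genes in 8 lists of T cell function, 31 (11.8%) had a member with one of their TSSs as the nearest, against 426 of 22208 protein-coding genes (1.92%). Marked flanking regions were nearest to 53 of the 262 (20.2%) and to 740 of all (3.33%). The lists had been drawn up with earlier results of these data known, so these counts describe where the regions lay and are no test.

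Among 21 genes of cytotoxic effectors and secreted cytokines, 3 had a member. Prf1 had a 528-bp region 3.445 kb downstream of a TSS with 1 main-form motif, and Nkg7, a cytotoxic granule gene, had a 534-bp region 1.69 kb downstream with 1 main form and 1 TGTGGC. Both genes also had Runx3 within 1 kb of a TSS. The Tnf region, 1.397 kb downstream, had an AP-1 and an ETS motif and 0 RUNX motifs in the centre. It was 0.708 kb from H3K4me1, the Prf1 region 2.17 kb and the Nkg7 region 13.0 kb.

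Among 33 genes of cytokine receptors and JAK-STAT signalling, members were at Il4ra, Socs1 and Socs2, against 9 genes with marked flanking regions. The Il4ra region, in an intron of this interleukin receptor gene, had 1 main-form motif with 2 ETS motifs and was 0.725 kb from H3K4me1. Socs1, which encodes an inhibitor of cytokine signalling, had 2 members 3.34 and 2.12 kb downstream, 1223 bp apart, the first with TGTGGC at 2 places 8 bp apart and an AP-1 motif. At Socs2, an inhibitor of the same family, the centre had 0 RUNX and 3 ETS motifs, and H3K4me1 was 44.0 kb away.

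TCR signalling genes were the list in which marked regions outnumbered members most. Of 32 genes, 2 had a member (6.25%) and 11 a marked flanking region (34.4%). The members were the pair at Lck, 1.91 kb downstream and 1.65 kb upstream of its nearest TSS, of which only the downstream one had a RUNX motif in the centre, and 1 at Plcg1, the phospholipase downstream of the TCR, with 1 main-form and 3 ETS motifs. Plcg1 had a marked flanking region as well. The 25 costimulatory and inhibitory receptor genes had 0 members and 4 genes with marked regions. Of 29 genes of chemokines, homing receptors and integrins, 2 had members, namely the chemokine receptor gene Ccr2, whose centre lay in an untranslated region and had 0 RUNX motifs, and Selplg, with 3 RUNX motifs. Marked flanking regions were at 5 of these genes (17.2%), Ccr2 among them.

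Transcription factors gave 13 of the 31 genes. Of the 65 in the annotation, 13 had a member (20%) and 13 a marked flanking region (20%), and Foxp1, Junb, Klf13 and Satb1 had both. The AP-1 genes Junb and Jund and the NF-kB gene Nfkb2 each had the CpG form once in the centre. The orphan receptor genes Nr4a2 and Nr4a3, both induced through the TCR, had TGCGGC at 2 places and at 1. The TCR-induced gene Egr3 had TGCGGC once and TGTGGC once. All 6 of these centres had at least 55% GC.

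Of the other 7 factor genes, 6 had the main form or TGTGGC. Bach2, a repressor that restrains effector differentiation, had 1 main-form and 2 ETS motifs in an intron 1.61 kb downstream of the TSS. Fli1, itself an ETS factor, had 1 main form and 1 TGTGGC, and Satb1, a chromatin organiser, had 1 main form with 2 ETS motifs. Foxp1, which maintains T cell quiescence, had 2 main forms and 1 TGCGGC. Batf3 had 1 main form, Myb 1 TGTGGC with an AP-1 motif, and Klf13 had 0 RUNX motifs in the centre. Of the 13, the regions at Myb (23.0 kb) and Nfkb2 (84.4 kb) were the farthest from H3K4me1, and that at Bach2 (0.652 kb) was the closest.

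Of 34 genes of survival, proliferation and metabolism, 5 had members and 4 had marked flanking regions. Casp8, an initiator caspase, had 1 TGTGGC, and Ccnd2 had the CpG form once in a region 4.15 kb upstream. Pik3cd, the PI3K delta subunit of lymphocytes, had 2 main forms, and so had Slc2a3, with an AP-1 motif beside them. Slc3a2, which encodes a subunit of amino acid transporters, had 0 RUNX motifs in its 403 bp and was 0.275 kb from H3K4me1. Of 23 genes of mRNA decay and signalling brakes, 3 had members, namely Dusp5, Dusp6 and Nfkbiz, which fell beyond the first 30 regions and are named after their values were seen. Dusp6, a phosphatase of the ERK kinases, had 1 TGCGGC, and the centres at Dusp5 and Nfkbiz had 0 RUNX motifs.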

How the data were processed

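ChIP-seq had been performed on IL-2 cultured splenic CD8-TC with anti-Runx3 antibody, NIS and anti-H3K4me1 antibody. Per the paper's methods and the labels, the authors used ELAND to place the reads of 40 to 42 bases on mm9. Reads with a unique position were kept, both repeats were merged, and MACS called peaks over the merged NIS reads, with the deeper set scaled down. The deposited positions (start and end in bp) form 1 list for Runx3 and 1 for H3K4me1 and come with 0 score columns, so peak height, replicate spread and read depth cannot be read from them. The study's methods state totals of uniquely aligned reads, which were not used here. The protocol speaks of 2 replicate experiments for each antibody and the labels give 1 H3K4me1 library, so it is not known whether that list rests on 1 or 2. Uniquely aligned reads limit calls in repeats, and a missing H3K4me1 call may be a weak signal as well as its absence.

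Regions were placed on the NCBIM37 assembly (mm9) with 86803 distinct TSS positions of GENCODE vM1, and overlap required 1 bp. Coordinates are counted from 1. Motifs were counted in the central 200 bp on both strands, and a module is a pair of non-overlapping motifs at most 50 bp apart. Shares were compared by two-sided Fisher's exact tests, 24 in all, with Benjamini-Hochberg adjustment over them and a threshold of 0.05. Newcombe intervals are given for differences, and McNemar's exact binomial test compared centres with flanks. Mappability was the share of 32-base words present once in the assembly. The code was tested on simulated data. The software was SciPy 1.17.1 and statsmodels 0.14.6 for tests, pandas 2.3.3 and NumPy 2.4.6 for tables, and matplotlib 3.10.9, under Python 3.11.15.

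The members, the gene lists and the tests were chosen with earlier results of these data known. Named regions were the 6 widest members, the 6 with most RUNX motifs, up to 30 members at genes of the lists in list order, the 2 on each side of each limit and the 3 with most motifs on chromosome X. Tiled windows, words of 6 bases, neighbour classes, CpG-rich centres and splits within the members were added after the data were seen, as were 2 alternatives. Settings that need a peak score or single libraries could not be run. A further marker locus is not reported here.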

Additional observations from a re-analysis of the deposited data

How the results depend on the processing

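The 25 comparisons were recomputed under alternatives, which gave 277 values, and 243 kept the side of the threshold. Of these, 223 also kept the direction, and the other 20 passed the test neither in the main comparison nor in the alternative. No called result turned its direction. No paired analysis was possible because peaks had been called on joined reads and the lists give no values for single libraries. For the same reason a stricter peak score and leaving out a library in turn could not be run, and how depth limits the H3K4me1 calls cannot be read from the lists. All values that follow are differences in percentage points, members minus the class named. The cause of these changes was not tested.

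In the central 100 bp, TGCGGT against marked flanking regions (2.41) and RUNX pairs against regions 5 to 50 kb away (-3.85) lost the call, while ETS against regions under 1 kb (-6.83) and TGTGGT against regions 5 to 50 kb away (-6.01) gained it. In the central 400 bp, the RUNX motif against regions under 1 kb (2.35) lost it, and TGTGGT (-8.41) and RUNX pairs (-5.88) against marked regions and TGTGGT against regions 5 to 50 kb away (-5.45) gained it. Over the whole region, the RUNX motif against regions under 1 kb (0.499) and RUNX pairs against regions 5 to 50 kb away (-5.27) lost it. The RUNX motif (-3.93), TGTGGT (-8.34) and RUNX pairs (-7.17) against marked regions and ETS against regions under 1 kb (-5.71) gained it there.

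With 50% cover needed for a marked region, ETS (-4.48) and the neighbour (-4.13) lost the call against marked regions, and the RUNX motif (-5.94), TGTGGT (-8.05), RUNX pairs (-5.73) and the downstream side (7.01) gained it. The downstream side also gained it with TSSs of protein-coding genes (9.58) and with regions of at least 90% unique words (6.23). TGCGGT lost it where the nearest region end set the distance (3.61), and the neighbour within 5 kb (-4.82). Within GC quintiles, the RUNX motif (5.72) and TGCGGT (-3.92) against regions under 1 kb lost it.

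Both alternatives chosen after seeing the data concerned the regions compared. Among widths in the interquartile range of the members, TGCGGT (2.37), ETS (-5.79), ETS-RUNX (-6.60) and the neighbour (-6.49) against marked regions, the RUNX motif against regions under 1 kb (7.36) and RUNX pairs against regions 5 to 50 kb away (-6.51) lost the call, and TGTGGT against marked regions (-9.95) gained it. Without CpG-rich centres, TGCGGT against marked regions (3.06) lost it. The concentration of the RUNX motif at the members' centres over their own flanks kept its call in the 3 alternatives run, from 38.7 to 48.7 points.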
